A study of Mus musculus with 10 samples.

Results

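Ketone body synthesis in mouse liver was followed through 4 genes, Acat1, Bdh1, Slc16a1 and Aacs. They were chosen by symbol, for the roles of their proteins, from the 24421 genes of the deposited count table, and all 4 passed the filter on low counts. The label covers more than synthesis: Acat1 and Bdh1 encode enzymes of the synthetic route, Slc16a1 encodes an export carrier, and Aacs encodes an enzyme that uses a ketone body. Other genes of the route were not analysed here. Hepatic poly(A) RNA of 10 male wild-type C57BL/6 mice, 21 weeks old and fed ad libitum, was sequenced, with 1 library per mouse. The 5 Chow mice ate chow alone, and the 5 TM5614 mice ate chow that delivered TM5614 at 20 mg/kg/day over 10 days. TM5614 is given by mouth and inhibits plasminogen activator inhibitor 1 (PAI-1), and the study asked how blocking PAI-1 alters hepatic lipid metabolism. All mice carried wild-type alleles and shared the basal diet.

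Ketone bodies are small, water-soluble fuels that hepatocytes make in their mitochondria from acetyl-CoA, most of it supplied by fatty acid beta-oxidation. Acat1 (acetoacetyl-CoA thiolase) joins acetyl-CoA units at the start of the route, and Bdh1 (3-hydroxybutyrate dehydrogenase) converts acetoacetate to 3-hydroxybutyrate at its end. Slc16a1 encodes the monocarboxylate carrier MCT1, which moves ketone bodies, lactate and pyruvate across the plasma membrane together with a proton. Hepatocytes export ketone bodies and have little of the transferase Oxct1 with which other tissues burn them. They can however return acetoacetate to lipid synthesis through Aacs, the cytosolic acetoacetyl-CoA synthetase.

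The carrier and the cytosolic synthetase moved in opposite directions, and neither mitochondrial enzyme passed the test. Slc16a1 was 2.23-fold higher in TM5614 (95% interval 1.72 to 2.89), and Aacs was 3.46-fold lower (95% interval 1.79 to 6.69). Acat1 and Bdh1 had estimates of 1.26-fold (95% interval 1.06 to 1.50) and 1.17-fold (95% interval 0.973 to 1.41) in TM5614 relative to Chow. Tests were edgeR's quasi-likelihood tests with Benjamini-Hochberg adjustment over all 11092 genes tested, and a gene was called at an adjusted p under 0.05. Of the 4 genes, 1 was called higher and 1 was called lower. Over all genes tested 4.50% were called, 1.73% higher and 2.77% lower, and the median log2 fold change was 0.01.

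**Figure D1:**
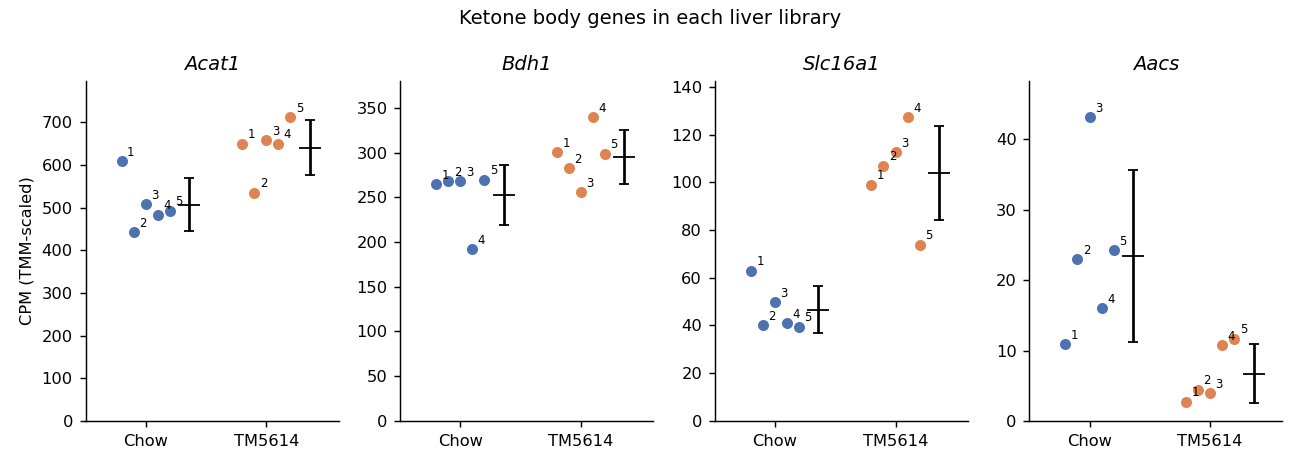
CPM (counts scaled by library size with edgeR's TMM factors) of the 4 genes in each library, with the replicate number beside each point and the mean ± SD of each group (n = 5) as a bar on its right. The groups of Slc16a1 are separate, those of Aacs meet at 10.9 and 11.7 CPM, and those of Acat1 and Bdh1 overlap.

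The libraries held between 6398335 and 10874955 counts. CPM of single genes are counts scaled by library size with edgeR's TMM factors. Sums of markers, here and below, are CPM scaled by the library total alone, without those factors. The hepatocyte markers summed to 106350 to 118434 CPM in Chow and 97913 to 110796 CPM in TM5614. None of those 8 markers was called. Skeletal muscle markers (10 genes) summed to at most 1.20 CPM in Chow and to 4017 CPM in TM5614 replicate 2, with 70.4 CPM in the next TM5614 library. The 8 stellate cell markers all had higher estimates in TM5614, with sums of 161 to 290 CPM in Chow and 260 to 579 CPM in TM5614. The highest stellate sum was in TM5614 replicate 2, with 350 CPM in the next TM5614 library. The 9 Kupffer cell markers all had lower estimates, with sums of 72.4 to 226 CPM in Chow and 76.2 to 168 CPM in TM5614. None of these 17 was called. Adipocyte markers (6 genes) summed to 3.43 to 26.1 CPM in Chow and to 86.3 CPM in TM5614 replicate 2, with at most 11.6 CPM elsewhere in TM5614. In a bulk liver library fewer cells of a type and less RNA per cell cannot be told apart, and the part of other cell types in the results was not tested. Without TM5614 replicate 2 the log2 fold changes were 0.39 for Acat1, 0.24 for Bdh1, 1.14 for Slc16a1 and -1.68 for Aacs, but Aacs was then no longer called (edgeR adjusted p = 0.0818). Chow replicate 2 also stood apart in its deviation from the median of all libraries, taken gene by gene. A trend on GC content and gene length accounted for 46.0% of the variance of that deviation, against 0.763 to 11.5% in the other libraries. Without Chow replicate 2 the log2 fold changes were 0.29 for Acat1, 0.24 for Bdh1, 1.10 for Slc16a1 and -1.80 for Aacs, and no call of the 4 genes changed.

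The synthetic enzymes were the most abundant of the 4 transcripts. Acat1 (GRCm38 chromosome 9, 53580522 to 53610382, minus strand) encodes the mitochondrial thiolase that opens the route and also acts in isoleucine and ketone body breakdown. It had 609, 442, 507, 483 and 492 CPM in Chow replicates 1 to 5, and 649, 535, 658, 649 and 711 CPM in TM5614 replicates 1 to 5. The groups overlapped because Chow replicate 1 lay above TM5614 replicate 2. Acat1 averaged 507 ± 62.0 CPM in Chow and 641 ± 64.3 CPM in TM5614 (SD, n = 5 each). The log2 difference was 0.34 with an SE of 0.11 (edgeR adjusted p = 0.127). Its unadjusted edgeR p of 0.0122 ranked 1063 among the genes tested. The call depended on the setting: limma-voom with sample quality weights gave an adjusted p of 0.0242, and leaving out Chow replicate 2 together with TM5614 replicate 2 gave an edgeR adjusted p of 0.0280. With the trend on GC content and gene length removed, the log2 fold change of Acat1 was 0.22.

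Bdh1 (GRCm38 chromosome 16, 31422280 to 31458901, plus strand) encodes the inner-membrane dehydrogenase whose reaction sets the ratio of 3-hydroxybutyrate to acetoacetate. The Chow libraries had 265, 268, 268, 192 and 270 CPM, and the TM5614 libraries had 300.3, 283, 255, 339 and 299 CPM. Of the Chow libraries 4 lay within 265 to 270 CPM, with replicate 4 well below them, and TM5614 replicate 3 fell under those 4. Bdh1 averaged 252 ± 33.8 CPM in Chow and 295 ± 30.5 CPM in TM5614 (SD, n = 5 each). The log2 difference was 0.23 with an SE of 0.12 (edgeR adjusted p = 0.322). Without Chow replicate 4 the log2 fold change was 0.13. An annotated antisense gene, Gm15743, overlaps Bdh1 and shares 122 of its 3088 possible 75-base reads (3.95%), and the use of strand in counting is not stated in the sources used here, so a small share of these counts is uncertain.

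Slc16a1 (GRCm38 chromosome 3, 104638668 to 104658462, plus strand) encodes the carrier. The 250 bases before its RefSeq start (GRCm38.p6, chr3:104638414-104638663, plus strand) are shown because Slc16a1 was the member called higher. Capitals mark CACGTG, the canonical E-box letters, which begin 200 bases before that start and were searched on both strands, where they read the same.
Slc16a1: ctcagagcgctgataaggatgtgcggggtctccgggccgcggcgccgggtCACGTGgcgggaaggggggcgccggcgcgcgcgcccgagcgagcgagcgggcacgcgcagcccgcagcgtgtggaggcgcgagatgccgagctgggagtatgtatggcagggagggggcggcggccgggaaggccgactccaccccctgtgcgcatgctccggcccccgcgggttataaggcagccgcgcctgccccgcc
The same letters were found in 6.02% of all 32851 promoter windows of this length and in 8.44% of the 10962 windows of genes tested.

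Slc16a1 had 62.9, 40.0, 49.7, 41.0 and 39.6 CPM in Chow replicates 1 to 5. In TM5614 replicates 1 to 5 it had 98.9, 107, 113, 127 and 73.8 CPM. Every TM5614 library lay above every Chow library, with Chow replicate 1 the highest of its group and TM5614 replicate 5 the lowest of its own. Slc16a1 averaged 46.7 ± 10.0 CPM in Chow and 104 ± 19.7 CPM in TM5614 (SD, n = 5 each). The log2 difference was 1.16 with an SE of 0.17 (edgeR adjusted p = 0.00266), an increase of 123%. It was the only one of the 4 genes whose groups did not overlap, which held for 8.93% of all genes tested. The counts behind these values ran from 259 to 519 in Chow and from 689 to 1113 in TM5614. The 2 annotated genes that overlap Slc16a1, Gm43581 and Gm43585, are intronic on the same strand, and 0 of its 4352 possible 75-base reads occur in a transcript of another gene.

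Aacs (GRCm38 chromosome 5, 125475814 to 125517410, plus strand) encodes the cytosolic enzyme that activates acetoacetate to acetoacetyl-CoA, a building block of sterols and fatty acids. The 250 bases before its RefSeq start (GRCm38.p6, chr5:125475623-125475872, plus strand) are shown because Aacs was the member called lower. Capitals mark the minus-strand match to TCACNCC, a short form of the sterol regulatory element, 46 to 40 bases before the RefSeq start. That start lies downstream of the GENCODE start given above, so the end of this window, with the match, lies inside the GENCODE span of the gene.
Aacs: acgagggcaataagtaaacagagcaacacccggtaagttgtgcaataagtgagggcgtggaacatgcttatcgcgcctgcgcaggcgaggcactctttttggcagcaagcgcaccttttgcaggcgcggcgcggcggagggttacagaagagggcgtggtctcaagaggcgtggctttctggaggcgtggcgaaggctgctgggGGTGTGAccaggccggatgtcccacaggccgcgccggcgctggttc
TCACNCC was found on either strand in 13.4% of all promoter windows and in 14.0% of those of genes tested. AGGTCA, the half-site of nuclear receptors such as PPAR-alpha, was also searched on both strands and was in neither sequence. It was found in 14.0% of all windows and in 11.2% of those of genes tested. Bdh1 had 2 entries, in which none of the 3 motifs was found. Acat1 was the member with no entry, so 3 of the 4 genes were matched.

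Aacs had 10.9, 23.0, 43.1, 16.0 and 24.3 CPM in Chow replicates 1 to 5. In TM5614 replicates 1 to 5 it had 2.73, 4.41, 3.90, 10.7 and 11.7 CPM. The groups overlapped at one point, where Chow replicate 1 lay below TM5614 replicate 5, and the remaining Chow libraries lay above all of TM5614. Aacs averaged 23.5 ± 12.3 CPM in Chow and 6.70 ± 4.19 CPM in TM5614 (SD, n = 5 each). The log2 difference was -1.79 with an SE of 0.44 (edgeR adjusted p = 0.0388), so the level fell by 71.1%. Aacs rested on the lowest counts of the 4 genes, 90 to 413 in Chow and 19 to 114 in TM5614. Its call was lost when Chow replicate 3, 4 or 5 or TM5614 replicate 1, 2, 3 or 4 was left out, with edgeR adjusted p from 0.0515 to 0.117 and log2 fold changes from -2.02 to -1.46.

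The spread between mice differed among the 4 genes. The coefficient of variation of Aacs was 52.2% in Chow and 62.6% in TM5614, where counting error alone gives 6.72% and 13.0%. In the other 3 genes it lay between 10.0 and 21.4%, with counting error of 1.36 to 4.88%. The highest Aacs library exceeded the lowest 3.95-fold within Chow and 4.29-fold within TM5614. Chow replicate 1 had the highest Acat1 and Slc16a1 and the lowest Aacs of its group. The biological coefficients of variation fitted by edgeR were 15.0% for Acat1, 15.7% for Bdh1, 20.0% for Slc16a1 and 46.5% for Aacs.

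**Figure D2:**
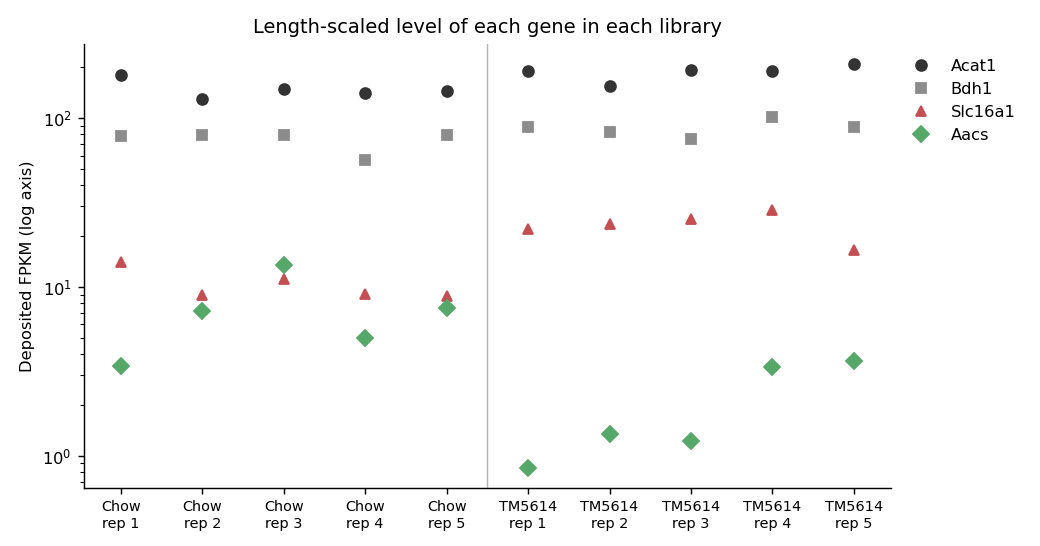
Deposited FPKM (counts scaled by library and gene length) of the 4 genes in each library, on a log axis, with Chow left of the grey line and TM5614 right of it. Acat1 and Bdh1 keep the first and second place in every library, Slc16a1 and Aacs come close to each other in Chow, where Aacs is the higher in replicate 3, and they lie apart in TM5614.

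Levels of different genes were compared per length, in the deposited FPKM (counts divided by a library factor and the gene length). In Chow the order was Acat1 (148 ± 18.5 FPKM), Bdh1 (74.8 ± 10.2), Slc16a1 (10.4 ± 2.26) and Aacs (7.31 ± 3.83, SD, n = 5 each). In TM5614 it was Acat1 (187 ± 20.1 FPKM), Bdh1 (87.3 ± 9.39), Slc16a1 (23.1 ± 4.41) and Aacs (2.08 ± 1.31, SD, n = 5 each). The ranges of Slc16a1 and Aacs overlapped in Chow, 8.80 to 14.1 FPKM against 3.41 to 13.5 FPKM, and these neighbours did not differ beyond their spread. In TM5614 the ranges of Slc16a1 and Aacs were apart, 16.5 to 28.5 FPKM against 0.849 to 3.65 FPKM.

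Ratios within a library do not depend on how libraries are scaled. The ratio of Slc16a1 to Aacs had a median of 125 FPKM of Slc16a1 per 100 FPKM of Aacs in Chow (range 82.6 to 413) and of 1736 in TM5614 (range 452 to 2597). Per 100 FPKM of Acat1, Slc16a1 had a median of 6.89 in Chow (range 6.12 to 7.87) and of 13.1 in TM5614 (range 7.90 to 15.2). Both of these ratios were higher in every TM5614 library than in any Chow library, as was the level of Slc16a1 itself. The nearest Chow and TM5614 values were 413 and 452 per 100 FPKM of Aacs, and 7.87 and 7.90 per 100 FPKM of Acat1. Bdh1 per 100 FPKM of Acat1 overlapped between the groups, with medians of 53.5 in Chow (range 40.2 to 61.2) and 46.8 in TM5614 (range 39.3 to 53.4). These ratios are descriptions and were not tested.

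Genes next to the 4 members in the use of ketone bodies and among the thiolases were read from the same fit. The gene lists here and below were chosen with earlier results of these data known, so their counts of calls are descriptions. Of 7 such genes 5 were tested, and 1 of them, Acat2, was called, in the lower direction. Over all genes tested 2.77% were called lower and 1.73% higher. Acat2 is the cytosolic thiolase, which makes acetoacetyl-CoA for sterol synthesis. It had 31.0, 58.1, 53.0, 36.3 and 37.3 CPM in the Chow libraries and 20.8, 25.2, 24.2, 25.9 and 23.0 CPM in the TM5614 libraries. The groups of Acat2 did not overlap, which held for 8.93% of all genes tested. The log2 difference of Acat2 was -0.86 with an SE of 0.17 (edgeR adjusted p = 0.0149). Acat2 shares 40.7% of its possible 75-base reads with Acat3 or Tcp1, and Acat3 shares 55.3% with Acat2 or Tcp1, so both levels are uncertain.

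The other tested genes of this list did not pass. Oxct1, the transferase that starts ketone body use outside the liver, was low, with 0.885 ± 0.406 FPKM in Chow and 1.18 ± 0.763 FPKM in TM5614 (SD, n = 5 each). The 2 testis relatives Oxct2a and Oxct2b had at most 1 count in any library and were not tested. Bdh2, the cytosolic relative of Bdh1, had a log2 fold change of -0.67 (edgeR adjusted p = 0.216), against 0.23 for Bdh1. Acat3 had -0.25 (adjusted p = 0.233), and Acaa2, the mitochondrial thiolase of fatty acid oxidation, had -0.10 (adjusted p = 0.716). The median log2 fold change of the 5 tested genes was -0.25, beside 0.01 over all genes tested.

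**Figure D3:**
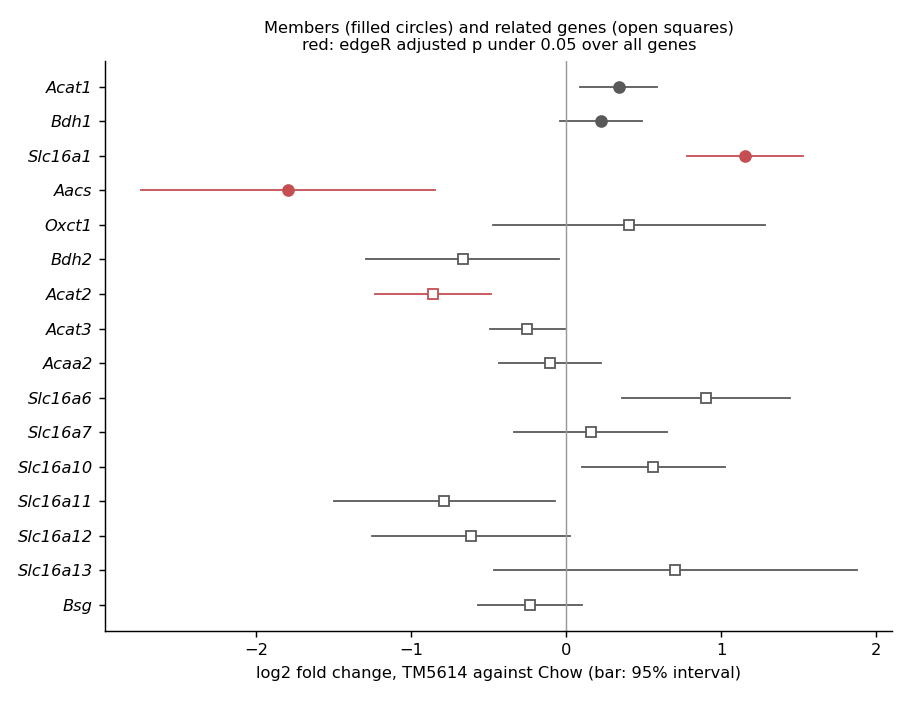
Log2 fold changes of TM5614 against Chow with 95% intervals (bars) for the 4 genes (filled circles) and for the tested ketone-use, thiolase, carrier and carrier-partner genes (open squares). Red marks an edgeR adjusted p under 0.05, which holds for Slc16a1 and Acat2 at 1.16 and -0.86 and for Aacs at -1.79.

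Slc16a1 was also set beside its relatives. Of 13 other monocarboxylate carriers and partner proteins 7 were tested. Of these 0 were called by edgeR at the adjusted threshold, against 4.50% of all genes tested. Their median log2 fold change was 0.16. Slc16a6, a relative that carries ketone bodies in zebrafish liver, had 2.25 ± 0.742 CPM in Chow and 4.29 ± 0.677 CPM in TM5614 (SD, n = 5 each). All TM5614 libraries were above all Chow libraries, and the log2 fold change of 0.90 gave an edgeR adjusted p of 0.0658. Slc16a6 rested on 6 to 45 counts per library and shares 23.7% of its possible 75-base reads with Amz2.

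The rest of the carriers were spread on both sides of 0. Slc16a10, an aromatic amino acid carrier, had a log2 fold change of 0.56 (edgeR adjusted p = 0.167), with 123 ± 38.0 and 181 ± 21.3 CPM (SD, n = 5 each). Slc16a7, which encodes the carrier MCT2, had 0.16 (adjusted p = 0.714), and Slc16a13 had 0.70 (adjusted p = 0.476). Slc16a11 had -0.79 (adjusted p = 0.206) and the creatine carrier Slc16a12 had -0.62 (adjusted p = 0.261). Bsg (basigin), the partner protein that brings MCT1 to the membrane, averaged 354 ± 88.8 CPM in Chow and 301 ± 29.9 CPM in TM5614 (SD, n = 5 each), and its log2 difference of -0.24 did not pass (edgeR adjusted p = 0.406). The 6 genes not tested were Slc16a3, Slc16a4, Slc16a8, Slc5a8, Slc5a12 and Emb, with at most 19 counts in any library.

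Upstream of ketone bodies, 4 of 17 genes of mitochondrial beta-oxidation were called higher in TM5614 by edgeR, against 1.73% of all genes tested. Of the 17 genes 0 were called lower, against 2.77% of all genes tested. The called genes were Hadhb, a subunit of the trifunctional protein (log2 fold change 0.76, adjusted p = 0.0197), Etfdh, which passes electrons to ubiquinone (0.64, adjusted p = 0.0331), Cpt2, of the carnitine shuttle (0.41, adjusted p = 0.0295), and Acadl, a long-chain acyl-CoA dehydrogenase (0.37, adjusted p = 0.0439). Cpt1a, the rate-limiting carnitine transferase, did not pass (0.63, adjusted p = 0.123). Of the 17 genes 12 had higher estimates, and their median log2 fold change was 0.22, beside 5713 higher estimates among the 11092 genes tested. Acat1, at 0.34, lay within the range of this list.

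Genes of the fasting response, both regulators and genes induced by fasting, were mixed. Of 14 such genes, 3 were called higher, Pdk4, Fgf21 and Cidec, against 1.73% of all genes tested. Of the 14, 1 was called lower, Ppargc1b, against 2.77% of all genes tested. Cidec, a lipid droplet protein induced by fasting, rose from 4.99 ± 1.30 to 27.1 ± 8.14 CPM (SD, n = 5 each, log2 fold change 2.43, edgeR adjusted p = 0.000340). Ppargc1b, a coactivator of fat oxidation and of lipogenic factors, fell from 20.3 ± 6.18 to 11.5 ± 1.62 CPM (log2 fold change -0.83, adjusted p = 0.0417). Ppara, the nuclear receptor that drives ketogenic genes in fasting, had a log2 fold change of -0.03 (adjusted p = 0.922). Pdk4, which limits glucose oxidation and is also abundant in muscle, averaged 3.94 ± 1.63 CPM in Chow and 47.1 ± 55.6 CPM in TM5614 (SD, n = 5 each). Its log2 fold change was 3.56 (edgeR adjusted p = 0.0122), and its groups did not overlap, which held for 8.93% of all genes tested. The TM5614 group held the library with muscle markers, whose part in these values was not tested. The median of the 14 was 0.12.

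Aacs stood among the genes of cytosolic lipid synthesis, where its product is used. Of 20 genes of sterol and fatty acid synthesis and their transcription factors, 15 were called lower by edgeR, against 2.77% of all genes tested. As said above, the list was chosen with earlier results of these data known. Of the 20, 0 were called higher, against 1.73% of all genes tested, and all 20 estimates were below 0. The called genes were Acss2, Fasn, Mvk, Pmvk, Mvd, Fdps, Fdft1, Sqle, Lss, Cyp51, Msmo1, Nsdhl, Dhcr7, Srebf1 and Srebf2, with log2 fold changes from -2.99 for Fdps to -0.89 for Acss2. The median of the list was -1.48, and Aacs, at -1.79, lay within its range. Acss2, which activates acetate as Aacs activates acetoacetate, fell from 133 ± 9.64 to 71.8 ± 8.45 CPM (SD, n = 5 each, edgeR adjusted p = 0.000889). Mvk, which encodes mevalonate kinase, fell from 20.6 ± 8.09 to 4.75 ± 1.05 CPM (log2 fold change -2.12, edgeR adjusted p = 0.00123).

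**Figure D4:**
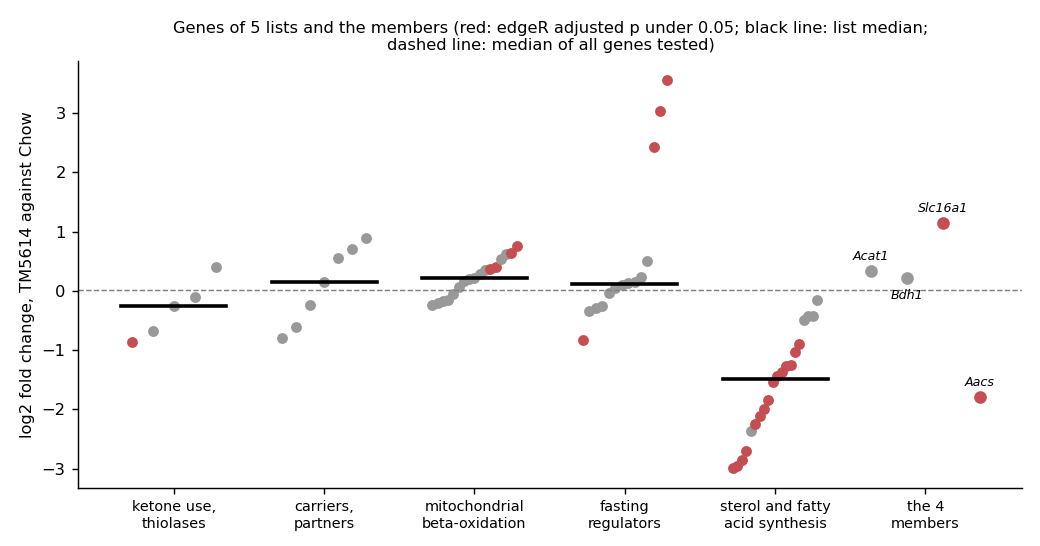
Log2 fold changes of TM5614 against Chow for the tested genes of 5 lists and for the 4 members, each point a gene, with red for an edgeR adjusted p under 0.05. Black lines are list medians, from -1.48 for sterol and fatty acid synthesis to 0.22 for mitochondrial beta-oxidation, and the dashed line is the median of all genes tested, 0.01.

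The genes whose log2 CPM followed each member most closely over the 10 libraries were taken from 8597 other genes with a mean of at least 50 counts. Libraries share a group, so these correlations hold the group difference too, and they are descriptions. The genes were picked for a high r, so their calls and their r with group means removed are not separate evidence. No chance level is given for them. Slc16a1 was closest to Leo1 (Pearson r = 0.98), Insig2 (0.98), Clpx (0.97) and Rab30 (0.97), all 4 of which were called higher in TM5614. Insig2, which encodes a protein that retains sterol factors in the endoplasmic reticulum, rose from 151 ± 42.2 to 511 ± 95.9 CPM (SD, n = 5 each, log2 fold change 1.76, edgeR adjusted p = 0.000549). With group means removed the r of Slc16a1 with Insig2 was 0.89. Aacs was closest to Klf13 (r = 0.95), Cdc42ep4 (0.94), Nr1i2 (0.93) and Mycbp (0.93), of which Klf13 was called lower (log2 fold change -0.89, adjusted p = 0.0291).

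Acat1 was closest to Gm4952 (r = 0.95), Cyp4a10 (0.94), Psmd14 (0.93) and Etfdh (0.93). Cyp4a10, a microsomal fatty acid omega-hydroxylase, was called higher with a log2 fold change of 1.40 (edgeR adjusted p = 0.00167), and its r with Acat1 was 0.95 with group means removed. Bdh1 was closest to Inhbc (r = 0.93), Vps53 (0.90), Nol7 (0.90) and Smu1 (0.89), of which 0 were called by edgeR at the adjusted threshold. The lists of 4 genes for the 4 members had no gene in common.

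**Figure D5:**
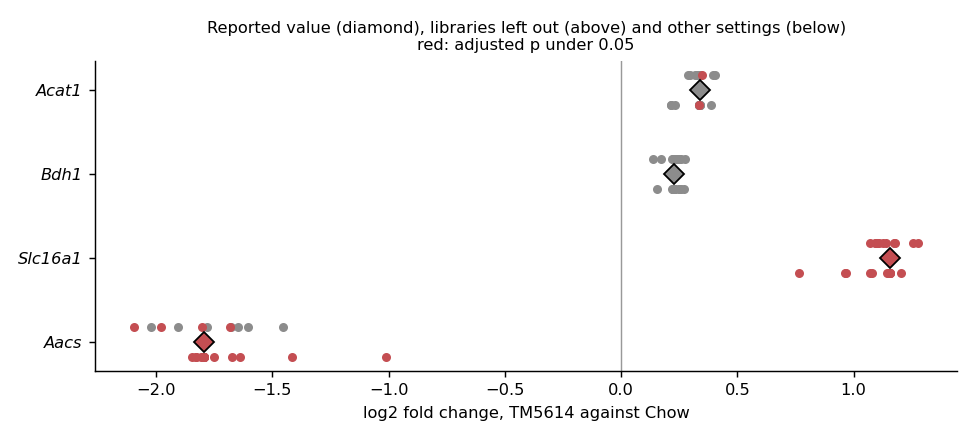
Log2 fold change of each gene as reported (diamond), with libraries left out (points above it) and under the other settings (points below it), where red marks an adjusted p under 0.05. Slc16a1 is red in every setting, between 0.76 and 1.28, Bdh1 in none, Acat1 in 2, and Aacs is grey in 7 of the fits that leave out 1 library.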

How the data were processed

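Liver RNA of 5 Chow and 5 TM5614 mice was extracted with Qiagen columns and made into KAPA mRNA HyperPrep libraries. Per the study's methods, 75-base single-end reads were aligned with STAR to mm10 and analysed with DESeq2 in Illumina's RNA Express application. The submitters' notes also list HOMER. The annotation, versions and use of strand are not given in the sources used here. The counts were deposited as whole numbers for each gene symbol, without normalization. The authors also deposited FPKM values and regularised log2 values from DESeq2. In 12419 genes with counts in all libraries, every FPKM value lay within 1% of the count over a library factor and a gene length, and the library factors followed DESeq2's size factors. The authors' own DESeq2 comparison (mean signal, fold change, statistic and p-values) was not used.

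Columns were matched to mice by the numbers in the labels, and all per-sample columns had a sample. Genes were filtered with filterByExpr, which left 11092, scaled by TMM and tested without a block in edgeR 4.0.16 (R 4.3.3), with 1 mouse as 1 replicate. Totals ran from 6398335 to 10874955 counts, and counting error was computed from the counts and covers that error only. In 20 within-group pairs of libraries the chi-square per degree of freedom was at least 7.50, so none was taken as a duplicate. Alternatives used DESeq2 1.42.0, limma 3.58.1, other scalings and filters, a correction for GC content and length (available for 96.7% of tested genes), and libraries left out. Fold changes on FPKM used pseudocounts of 0.1 and 1.

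Gene positions came from GENCODE M21 on GRCm38 (mm10), and promoters from RefSeq on GRCm38.p6. The 4 members, the gene lists and the marker lists were chosen with earlier results of these data known. Genes of a list were named where called, and all genes of the ketone-use and carrier lists were named. For likeness, the 4 genes with the highest Pearson r were taken, on log2 CPM with a prior count of 2. Marker lists also covered liver endothelium, cholangiocytes, erythroid cells, lymphocytes, pancreas, and pericentral and periportal hepatocytes. Some genes are not reported here.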

Additional observations from a re-analysis of the deposited data

Results flagged for a closer look

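Single libraries that lay far from the other 4 of their group, by Dixon's criterion at 95%, were looked for in the 4 members, their tested relatives and the 5 ratios between members. Summed markers were not screened in this way. Of 42 groups of 5 libraries, over 21 measures, 6 were picked out, where chance gives about 2.1.

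One was in a member. Bdh1 had 192 CPM in Chow replicate 4, and the other Chow libraries had 265 to 270 CPM. That library had the lowest total of the series, 6398335 counts, and still held 1212 counts of Bdh1. Slc16a6 was also low there, with 0.951 CPM (6 counts) against 2.43 to 2.80 CPM in the rest of Chow.

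Chow replicate 2, whose values followed GC content and length, had 15.1 CPM of Slc16a11 against 4.44 to 6.47 CPM in the other Chow libraries, and 510 CPM of Bsg against 287 to 328 CPM. TM5614 replicate 2, which held 4017 CPM of muscle markers, had 9.08 CPM of Oxct1, a gene of extrahepatic ketone use, against 2.51 to 3.21 CPM in the rest of TM5614. Slc16a11 in TM5614 replicate 1 had 5.89 CPM against 3.63 to 4.21 CPM. Whether muscle RNA or GC content accounts for these values was not tested.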

How the results depend on the processing

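All 4 log2 fold changes kept their direction in 25 alternatives each. Slc16a1 stayed under the threshold in all of them, between 0.76 (regularised log2 values, which are shrunk) and 1.28, and Bdh1 in none, between 0.13 and 0.27. Acat1 passed with limma-voom (0.34) and without Chow replicate 2 and TM5614 replicate 2 together (0.35), and ranged from 0.29 to 0.40 with 1 library left out. Aacs kept its call in the 15 alternatives that did not leave out a single library, with values from -1.84 to -1.01, and lost it in 7 of 10 that did, with values from -2.09 to -1.46 over those 10.

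The count of called genes, 499, was 900 with DESeq2, 1386 with limma-voom, 771 with the GC content and length correction and the block together, 1230 without Chow replicate 2 and TM5614 replicate 2 together, and 184 at an adjusted p of 0.01. It ranged from 235 to 1031 with 1 library left out. Leaving out Chow replicate 2 gave the highest count (1031) and leaving out TM5614 replicate 3 the lowest (235), and the count was 293, 331 and 259 when Chow replicate 3, TM5614 replicate 1 or TM5614 replicate 4 was dropped. The causes were not tested.

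With the replicate number as a block, 555 genes were called. The log2 fold changes were then 0.34 for Acat1, 0.23 for Bdh1, 1.15 for Slc16a1 and -1.83 for Aacs, and no call of the 4 genes changed. Deviations of same-numbered libraries correlated at 0.032, 0.318, 0.124, 0.032 and 0.250 for numbers 1 to 5. They are not all over 0.1, so the libraries were taken to share only a number. Of the Chow libraries only replicate 2 correlated best with its own number. Counting error limits Aacs most, at 19 counts in TM5614 replicate 1.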

Other observations

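Markers of hepatocyte zones were read beside the 4 genes, since ketone body synthesis and lipid synthesis differ along the liver lobule. Of 8 pericentral genes, 1 was called higher in TM5614, Axin2, a Wnt target, and 2 were called lower, Cyp1a2 and Rgn. Over all genes tested 1.73% were called higher and 2.77% lower. The 8 pericentral genes summed to 11290 to 17711 CPM in Chow and 12208 to 16334 CPM in TM5614. Of 8 periportal genes 0 were called by edgeR at the adjusted threshold, with sums of 9628 to 16996 CPM in Chow and 15026 to 17259 CPM in TM5614. The medians of the log2 fold changes were 0.00 over the pericentral genes and 0.03 over the periportal genes.

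Markers of cell types not given beside the results were summed too. Liver endothelium markers (8 genes) summed to 88.7 to 153 CPM in Chow and 93.6 to 165 CPM in TM5614, and cholangiocyte markers (6 genes) to 32.7 to 49.9 CPM in Chow, with 28.2 CPM in the lowest TM5614 library, 63.0 CPM in the second-highest and the highest sum of all libraries in TM5614 replicate 5. Lymphocyte markers (6 genes) stayed between 1.55 and 5.09 CPM in all libraries. Erythroid markers (6 genes) summed to 38.2 to 84.6 CPM in Chow and 34.4 to 56.7 CPM in TM5614, with 4 globin genes listed at 0 counts in all libraries. Pancreas markers (5 genes) summed to 6.74 to 14.3 and 6.00 to 7.71 CPM, with 3 of them listed at 0. Their part in the levels of the 4 genes was not tested.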
